A study of Papio papio with 23 samples.

Results

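MHC class II molecules carry peptides from outside the cell to CD4 T cells. In blood they are made by B cells, monocytes and dendritic cells. Their alpha and beta chains assemble with the invariant chain CD74, which blocks the peptide groove until it is digested. HLA-DM then loads peptide, and HLA-DO, a heterodimer of HLA-DOA and HLA-DOB found mainly in B cells, restrains HLA-DM. CIITA, the class II transactivator, is recruited to the promoters of these genes and sets their transcription. The members described here were 10 genes, namely HLA-DRA, HLA-DPA1, HLA-DPB1, HLA-DQA1, HLA-DMA, HLA-DMB, HLA-DOA, HLA-DOB, CD74 and CIITA. The rule takes every probe that carries one of these names in the scanner files. That gave 19 of the 50599 non-control probes on the array, 3 for the DO chains and 16 for the other genes, called pan class II here with CIITA included. All 19 were well above background on at least 4 arrays and were tested among 27215 probes.

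The RNA came from peripheral whole blood of adult male baboons, Papio papio, with an average age of 8.1 years, exposed to 60Co gamma rays over the total or a partial body at an equivalent whole body dose of 2.5 or 5 Gy. The groups are named by the category of hematological acute radiation syndrome (HARS). There were 5 arrays of category H2-3 on day 2 after exposure, 5 of H2-3 on day 1, 4 of H1-2 (low to medium degree) on day 2, 4 of H1-2 on day 1 and 5 of H0, healthy animals before irradiation. Dose and body field of each animal were not given in the labels, so each category pools both. Baboon numbers recur on both days within a category, and the labels do not tie the H0 animals to those of the irradiated groups. A level below is the log2 of the array's processed signal minus the log2 of that array's 75th percentile, and levels of different probes are not comparable.

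The 75th percentile of signal ranged from 80.9 to 156.4 units over the 23 arrays, and 41.4% to 51.3% of probes were well above background. The number of arrays limits the precision. The arrays are a human design, and how well each human probe pairs with the baboon transcript was not tested. The arrays lay on 7 slides scanned on 3 days. All day 2 arrays were scanned on a day of their own, so day 2 against H0 or against day 1 cannot be told apart from the scan day. In whole blood, fewer cells of a type and less RNA per cell cannot be told apart.

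Several genes were read by more than 1 probe, and those probes did not give the same result. The sequences below are shown because the text compares them with a sister probe of the same gene or because they read a central member. No gene annotation was used here, so exon and coding bounds are not given. Positions are hg19, as the files give them. The HLA-DPB1 probes on NM_002121 begin at bases 256, 537 and 734 for probes 2, 3 and 4, at chr6:33048489-33048537, chr6:33052784-33052843 and chr6:33052981-33053587 on the plus strand. The first spans 49 genome bases for 60 probe bases, so it does not cover the whole sequence printed. The last of these spans 607 genome bases for 60 probe bases and so crosses a splice junction. HLA-DQA1 probe 1 at chr6:32609287-32609758 also crosses one, spanning 472 bases on the plus strand. The CD74 probe is at chr5:149792222-149792281 on the minus strand and CIITA probe 1 at chr16:10996598-10996657 on the plus strand. HLA-DOA probe 1 begins at base 53 of NM_002119 and is shown from its first ATG, in capitals, at chr6:32977277-32977313 on the minus strand.
HLA-DPB1 probe 2: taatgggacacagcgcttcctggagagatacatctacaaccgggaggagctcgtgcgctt
HLA-DPB1 probe 3: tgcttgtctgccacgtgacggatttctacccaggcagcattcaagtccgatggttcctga
HLA-DPB1 probe 4: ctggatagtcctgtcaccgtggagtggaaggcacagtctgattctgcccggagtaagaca
HLA-DQA1 probe 1: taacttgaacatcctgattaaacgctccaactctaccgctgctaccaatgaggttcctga
CD74 probe 1: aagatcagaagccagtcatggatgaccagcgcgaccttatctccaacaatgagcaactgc
CIITA probe 1: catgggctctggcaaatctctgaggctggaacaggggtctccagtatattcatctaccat
HLA-DOA probe 1: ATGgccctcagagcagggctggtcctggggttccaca

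Both DO chains were lower in H2-3 blood than in H0 blood on both days. HLA-DOB, the beta chain of HLA-DO, is read by 1 probe at chr6:32780663-32780722 on the minus strand. Its level was -0.17, -0.05, 0.24, -0.39 and 0.14 in H2-3 on day 2, -0.35, 0.27, 0.91, -0.70 and -0.45 in H2-3 on day 1, and 1.97, 1.51, 2.36, 0.99 and 2.02 in H0. All 10 H2-3 arrays were below all H0 arrays, though the highest of them, 0.91, was close to the lowest H0 array, 0.99. How many of all probes part the groups this fully, or nearly so, was not counted, for this or any probe below. HLA-DOB fell 3.52-fold in H2-3 on day 2 (-1.82 ± 0.43 log2, SE; limma adjusted p = 0.0124) and 3.56-fold on day 1 (-1.83 ± 0.43; limma adjusted p = 0.00325).

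HLA-DOA, the alpha chain, is read by 2 probes that lie far apart on the transcript NM_002119. Probe 2, at chr6:32971970-32972029 and base 3414, had levels of 2.29, 1.46, 2.46, 2.39 and 3.07 in H2-3 on day 2, 1.83, 1.52, 2.99, 1.90 and 2.67 in H2-3 on day 1, and 4.15, 3.83, 4.18, 4.20 and 4.85 in H0. Here too all 10 H2-3 arrays were below all H0 arrays. The probe fell 3.76-fold on day 2 (-1.91 ± 0.41; limma adjusted p = 0.00862) and 4.18-fold on day 1 (-2.06 ± 0.41; limma adjusted p = 0.000928). Among the 3 H0 arrays scanned together with the day 1 arrays, the day 1 difference was -2.23 for this probe and -1.85 for HLA-DOB. On the single slide that holds both groups, with 1 array of each, the differences were -3.02 and -2.37. With slide as a fixed block, which rests on that 1 pair, HLA-DOB did not pass (limma adjusted p = 0.17).

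HLA-DOA probe 1, near the start of the transcript, read differently from probe 2. It was dim, with a mean of -2.52 ± 0.27 in H2-3 on day 2, -1.82 ± 0.20 on day 1 and -2.14 ± 0.35 in H0 (SD, n = 5 each). Its change from H0 was -0.37 (95% interval -0.76 to 0.01) on day 2 and 0.32 (-0.06 to 0.71) on day 1, with neither past the threshold. On day 1, 4 of 5 H2-3 arrays were above all H0 arrays for this probe. It was the only member probe called between the days in H2-3, where it fell by 0.70 ± 0.19 on the log2 scale on day 2 (limma adjusted p = 0.048), a call that 15 of 19 other settings did not make. It was lost without H2-3 day 2 baboon 2, 3, 4 or 5 and without H2-3 day 1 baboon 1, 2, 4 or 5, with limma adjusted p up to 0.13. For that comparison 2.48% of all probes were called (676, between 20 and 4180 without single arrays), 1.53% higher and 0.955% lower, and 25.3% had an unadjusted p under 0.05, as did this 1 member probe. HLA-DOA probe 2 and HLA-DOB differed between the days by 0.15 (-0.69 to 1.00) and 0.02 (-0.87 to 0.91).

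In H1-2 the 4 baboons fell into a low and a high pair for both DO chains, with the same baboon numbers on both days. Baboons 1 and 2 shared 1 slide on each day and baboons 3 and 4 another, so the H1-2 arrays alone cannot tell the pair from the slide. H2-3 arrays lay on the same slides. On the slides of baboons 1 and 2 and of baboons 3 and 4, they averaged 0.01 and -0.12 for HLA-DOB on day 2. On day 1 they averaged 0.59 and -0.57. The part of the slide in the H1-2 split was not tested. HLA-DOB was at 0.65, 1.10, 2.98 and 2.19 for baboons 1 to 4 on day 2 and at 0.98, 0.27, 2.05 and 2.49 on day 1. HLA-DOA probe 2 was at 2.65, 3.12, 4.62 and 4.80 on day 2 and at 2.78, 3.02, 4.16 and 4.11 on day 1. Baboons 3 and 4 thus lay within or near the range of H0, whereas baboons 1 and 2 lay below every H0 array for HLA-DOA. The group differences from H0 were -0.45 (-1.34 to 0.45) on day 2 and -0.73 (-1.62 to 0.17) on day 1 for HLA-DOA, and -0.04 (-0.99 to 0.90) and -0.32 (-1.27 to 0.62) for HLA-DOB, none past the threshold.

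**Figure D1:**
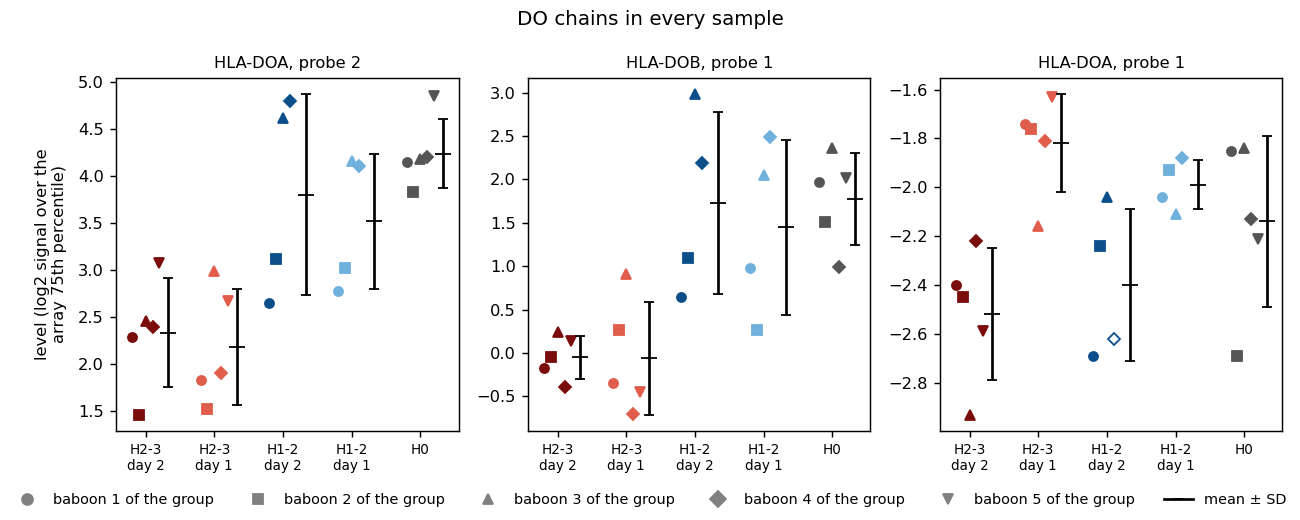
Level of the 3 DO probes in every sample (log2 signal over the array 75th percentile, 1 symbol per baboon number, open symbols not well above background, bars mean ± SD) in H2-3 on day 2 and day 1, H1-2 on day 2 and day 1, and H0. For HLA-DOA probe 2 and HLA-DOB all 10 H2-3 symbols lie below all 5 H0 symbols and H1-2 is split into 2 low and 2 high baboons, while HLA-DOA probe 1 shows no such pattern.

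Set against H1-2, H2-3 had lower HLA-DOB by 1.77 ± 0.46 on day 2 and by 1.51 ± 0.46 on day 1, and lower HLA-DOA probe 2 by 1.46 ± 0.43 and 1.34 ± 0.43. None of these passed the threshold in limma, with adjusted p = 0.503 and 0.397 for HLA-DOB and 0.508 and 0.44 for HLA-DOA. Limma called 0 of 27215 probes in either comparison. At an unadjusted p under 0.05 it counted 9.8% of probes on day 2 and 5.66% on day 1, and 4 and 2 of the 19 member probes. Within the slides, the HLA-DOB difference of H2-3 minus H1-2 was -0.86 and -2.71 on the 2 day 2 slides and -0.03 and -2.85 on the 2 day 1 slides. The slides with the small differences held H1-2 baboons 1 and 2.

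B cell markers had the same order of groups. Of 18 tested markers 15 fell in H2-3 on day 2 and 14 on day 1, and 0 in H1-2 on either day. Of all probes, 4.58% fell in H2-3 on day 2 and 13.6% on day 1. In H1-2, 4.54% of all probes fell on day 1, and 0 of 27215 probes were called on day 2. Between H2-3 and H1-2, 0 of the 18 markers were called on either day. Their mean level was -0.03 ± 0.43 in H2-3 on day 2, -0.46 ± 0.62 on day 1, 1.56 ± 1.41 in H1-2 on day 2, 1.49 ± 1.12 on day 1 and 2.10 ± 0.31 in H0 (SD, n = 5, 5, 4, 4 and 5). In H1-2 the array means were 0.23, 0.47, 2.76 and 2.80 for baboons 1 to 4 on day 2 and 0.91, 0.20, 2.54 and 2.29 on day 1. The summed linear signal of the list, in units of the 75th percentile, overlapped between groups, from 146 to 546 in H2-3 on day 2, 344 to 764 on day 1, 206 to 1010 in H1-2 on day 2, 402 to 964 on day 1 and 466 to 1100 in H0. MS4A1 was well above background on 1 of 5 H0 arrays and on no other array, and PAX5 on none, so neither was tested. The part of B cell number in the DO result was not tested.

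The genes whose level followed HLA-DOB most closely over the 23 arrays, among 13609 genes, were SPIB (Pearson r = 0.939), a transcription factor of B cells and plasmacytoid dendritic cells, PNOC (0.925), which encodes prepronociceptin, and TCF4 (0.919), a transcription factor of B cells and plasmacytoid dendritic cells. CD79B, the signalling chain of the B cell receptor, and HS3ST1, a heparan sulfate sulfotransferase, followed at 0.91 each. These r values describe arrays that share groups and animals.

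The pan class II probes had medians close to 0. Their median change from H0 was -0.17 in H2-3 on day 2 and -0.12 on day 1, and 0.12 and 0.08 in H1-2. All probes tested had medians of -0.01 and 0.13 in H2-3 and 0 and 0.08 in H1-2. The DO probes had medians of -1.82 and -1.83 in H2-3 and -0.25 and -0.32 in H1-2. These are medians of only 3 probes, which ranged in H2-3 from -1.91 to -0.37 on day 2 and from -2.06 to 0.32 on day 1. The pan class II probes ranged there from -1.05 to 0.29 and from -1.06 to 0.23. Scaling on the probes detected on every array lowered the median of all probes in H2-3 to -0.17 on day 2 and -0.06 on day 1. The medians of the pan class II probes are therefore read beside the median of all probes under the same scaling.

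Of the 19 member probes limma called 2 lower in H2-3 on day 2, when 14.8% of all probes were called, 10.2% higher and 4.58% lower. It called 3 lower on day 1, when 28.6% of all probes were called, 15% higher and 13.6% lower. At an unadjusted p under 0.05 there were 2 member probes on day 2 and 5 on day 1, against 34.7% and 39.2% of all probes. In H1-2 it called 0 of 19 on day 2, when 0 of 27215 probes passed and 10.6% had an unadjusted p under 0.05. It called 0 of 19 on day 1, when 8.69% of all probes were called, 4.15% higher and 4.54% lower. No member probe had an unadjusted p under 0.05 in H1-2 on either day, whereas 27.2% of all probes did on day 1. The day 1 member count in H2-3 is of the order of the share of all probes that were lower on that day. Whether the day 2 count exceeds its share was not tested. Among the 19 member probes, the largest changes from H0 called in H2-3 were those of HLA-DOA probe 2 and HLA-DOB. Their size was not set against that of all called probes.

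**Figure D2:**
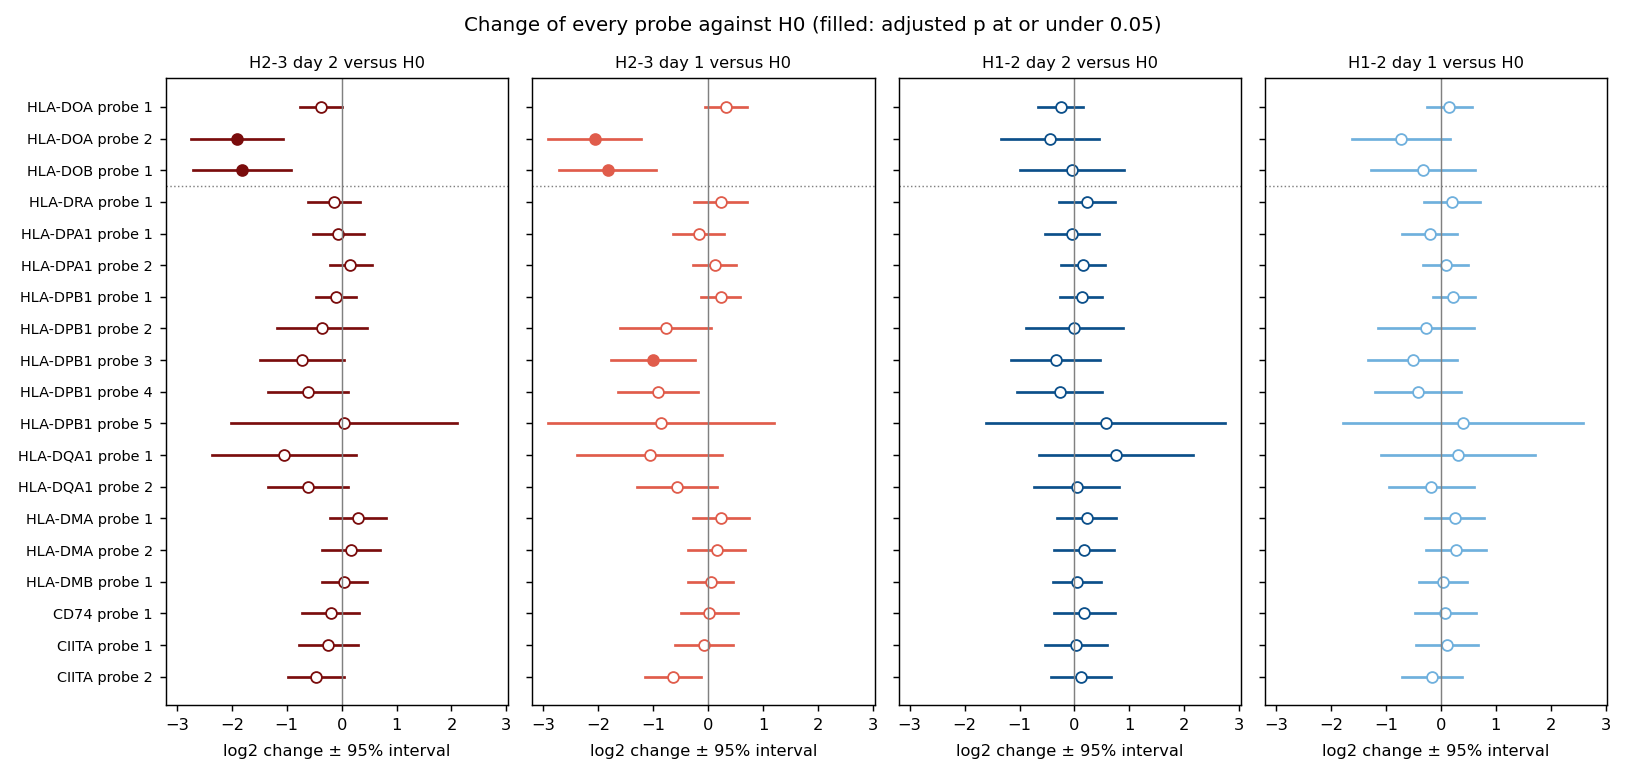
Log2 change from H0 with its 95% interval for each of the 19 probes, in H2-3 on day 2 and day 1 and in H1-2 on day 2 and day 1 (filled circles, limma adjusted p at or under 0.05, and the dotted line parts the 3 DO probes from the other 16). HLA-DOA probe 2 and HLA-DOB lie between -1.82 and -2.06 in H2-3, most pan class II intervals cross 0, and HLA-DPB1 probe 5 has the widest.

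HLA-DRA, the alpha chain of HLA-DR, which varies little between individuals, was high in every group. Its levels were 5.49, 5.07, 5.90, 5.51 and 5.63 in H2-3 on day 2, 6.02, 5.12, 6.29, 5.75 and 6.23 on day 1, and 5.31, 5.41, 6.15, 5.61 and 5.80 in H0. The groups overlapped, and H2-3 baboon 2 was lowest in its group on both days. The changes were -0.14 (95% interval -0.62 to 0.34) on day 2 and 0.23 (-0.25 to 0.71) on day 1, and 0.22 (-0.29 to 0.73) and 0.20 (-0.31 to 0.71) in H1-2. The intervals in H2-3 exclude a fall of HLA-DRA as large as the H2-3 estimate for HLA-DOB. The genes closest to HLA-DRA over the 23 arrays were P2RY12 (r = 0.735), an ADP receptor of platelets, HLA-DRB4 (0.73), ZUFSP (0.703), EEF1DP3 (0.676) and EXOC5 (0.662), lower values than for HLA-DOB.

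HLA-DPA1, the alpha chain of HLA-DP, was not called in any comparison. The brighter probe 2, at chr6:33032848-33032907, averaged 7.10 ± 0.26 in H2-3 on day 2, 7.05 ± 0.31 on day 1 and 6.93 ± 0.30 in H0 (SD, n = 5 each). Its changes were 0.16 (-0.22 to 0.55) and 0.12 (-0.27 to 0.50), and those of probe 1 were -0.06 (-0.53 to 0.40) and -0.17 (-0.64 to 0.29). In H1-2 the 2 probes changed by between -0.20 and 0.16.

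HLA-DPB1, the partner beta chain, gave the least uniform picture. Probe 3 had levels of 5.81, 4.12, 5.12, 4.35 and 5.04 in H2-3 on day 2, 4.98, 3.93, 4.47, 4.09 and 5.57 on day 1, and 5.00, 5.92, 5.49, 6.03 and 5.59 in H0. On day 1, 4 of 5 H2-3 arrays were below all H0 arrays. The probe fell by 1.00 ± 0.37 on the log2 scale on day 1 (limma adjusted p = 0.0457), close to the threshold, and this call was made under 9 of 21 other settings. It was lost without H2-3 day 1 baboon 2, 3 or 4 and without H0 baboon 2, 3, 4 or 5, with limma adjusted p of 0.0546 to 0.119. On day 2 its change was -0.72 (-1.49 to 0.04; limma adjusted p = 0.165).

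The probes on either side read alike in direction. Probe 4 changed by -0.91 ± 0.35 on day 1 (limma adjusted p = 0.0575), ranging from -1.17 without H2-3 day 1 baboon 5 (limma adjusted p = 0.017) to -0.74 without baboon 2 (limma adjusted p = 0.148), and probe 2 by -0.77 ± 0.40 (limma adjusted p = 0.157). On day 2 they changed by -0.61 (-1.35 to 0.12) and -0.36 (-1.18 to 0.47). In each of probes 2, 3 and 4, H2-3 baboons 2 and 4 were the 2 lowest of their group on day 1 and day 2. Probe 1, designed on the transcript ENST00000466949, was dim. It averaged -1.91 ± 0.26 in H2-3 on day 2, -1.58 ± 0.23 on day 1 and -1.81 ± 0.33 in H0 (SD, n = 5 each). Its changes were -0.10 (-0.46 to 0.26) and 0.23 (-0.13 to 0.59).

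Probe 5, at chr6:33054359-33054418, was set by single animals. It stood at 5.59, 4.33, 4.56, 2.48 and 4.70 in H2-3 on day 2, 5.28, 4.38, 5.07, -2.43 and 4.87 on day 1, and 4.35, 5.58, 4.85, 2.88 and 3.81 in H0. Baboon 4 of H2-3 was lowest on both days, while its probe 4 levels were 6.20 and 5.88. Whether sequence differences between animals at this probe took part was not tested. The interval for its change on day 1, -2.92 to 1.20, covers both directions. In H1-2, HLA-DPB1 probes 1 to 5 changed by between -0.34 and 0.57 on day 2 and between -0.51 and 0.40 on day 1.

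HLA-DQA1, the alpha chain of HLA-DQ, varied more between animals than HLA-DRA. Probe 1 was at 3.07, 0.32, 1.42, 0.58 and 2.46 in H2-3 on day 2, 2.79, 0.52, 2.75, 1.03 and 0.69 on day 1, and 1.57, 3.58, 2.43, 3.54 and 1.97 in H0. The groups overlapped, though 3 of 5 H2-3 arrays were below all H0 arrays on each day. Its changes were -1.05 (-2.36 to 0.27) and -1.06 (-2.38 to 0.25). Probe 2, at chr6:32610501-32610560, changed by -0.61 (-1.34 to 0.12) and -0.57 (-1.30 to 0.16). Neither passed the threshold, and these intervals do not exclude a fall. Against H1-2 on day 2, H2-3 probe 1 was lower by 1.80 ± 0.67 (unadjusted p = 0.0142; limma adjusted p = 0.508).

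**Figure D3:**
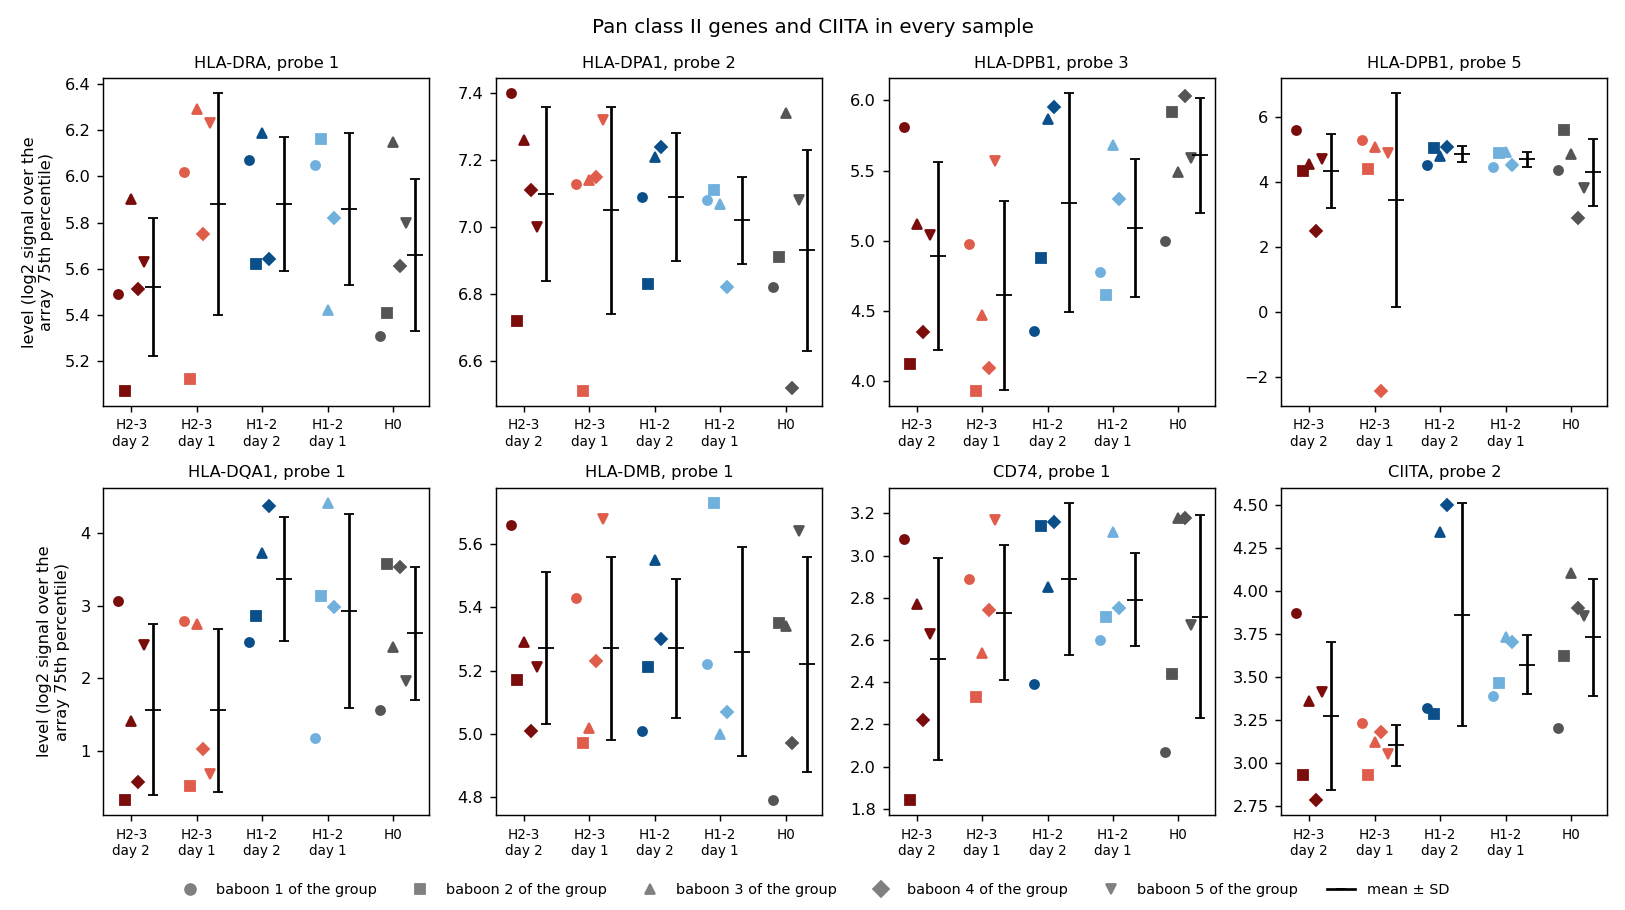
Level of 8 pan class II probes in every sample (log2 signal over the array 75th percentile, 1 symbol per baboon number, bars mean ± SD) in H2-3 on day 2 and day 1, H1-2 on day 2 and day 1, and H0. HLA-DRA, HLA-DPA1, HLA-DMB and CD74 overlap in all groups, HLA-DPB1 probe 3 and CIITA probe 2 have most H2-3 day 1 symbols below H0, and HLA-DPB1 probe 5 has 1 H2-3 day 1 baboon at -2.43.

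HLA-DM, the peptide editor that HLA-DO restrains, was not called in any comparison. HLA-DMA, its alpha chain, averaged 4.84 ± 0.41 in H2-3 on day 2, 4.78 ± 0.59 on day 1 and 4.55 ± 0.17 in H0 (SD, n = 5 each) with probe 1. Its changes were 0.29 (-0.22 to 0.80) and 0.23 (-0.28 to 0.74), and those of probe 2 were 0.17 (-0.35 to 0.69) and 0.16 (-0.36 to 0.67). For probe 1, 4 of 5 H2-3 arrays on day 2 and 3 of 5 on day 1 were above all H0 arrays. H2-3 baboon 2 was below all H0 arrays on both days. HLA-DMB, the beta chain, averaged 5.27 ± 0.24, 5.27 ± 0.29 and 5.22 ± 0.34 in H2-3 on day 2, H2-3 on day 1 and H0. Its changes of 0.05 (-0.36 to 0.46) and 0.05 (-0.37 to 0.46) were the closest to 0 of the 3 DM probes. In H1-2 the 3 DM probes changed by between 0.04 and 0.27. In H2-3 baboon 2 the DMA probes were lowest of the group on both days, at 4.17 and 3.98 for probe 1 and 4.68 and 4.62 for probe 2.

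CD74, the invariant chain, had levels of 3.08, 1.84, 2.77, 2.22 and 2.63 in H2-3 on day 2, 2.89, 2.33, 2.54, 2.74 and 3.17 on day 1, and 2.07, 2.44, 3.18, 3.18 and 2.67 in H0. The groups overlapped fully on day 1. The changes were -0.20 (-0.72 to 0.32) on day 2 and 0.02 (-0.50 to 0.55) on day 1, and 0.18 (-0.38 to 0.73) and 0.08 (-0.47 to 0.64) in H1-2.

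CIITA was read by a bright and a dim probe. Probe 2, at chr16:11018667-11018726 and base 4480 of NM_000246, was at 3.87, 2.93, 3.36, 2.78 and 3.41 in H2-3 on day 2, 3.23, 2.93, 3.12, 3.18 and 3.05 on day 1, and 3.20, 3.62, 4.10, 3.90 and 3.85 in H0. On day 1, 4 of 5 H2-3 arrays were below all H0 arrays. The change was -0.63 ± 0.25 on day 1, short of the threshold (limma adjusted p = 0.0571). Without H0 baboon 1 it was -0.77 (limma adjusted p = 0.0303), and without H0 baboon 3 it was -0.54 (limma adjusted p = 0.12). On day 2 the change was -0.47 (-0.97 to 0.04). In H1-2 it was at 3.32, 3.28, 4.34 and 4.50 on day 2 and 3.39, 3.46, 3.73 and 3.70 on day 1. Baboons 3 and 4 were again above baboons 1 and 2, and lay on a different slide from them on each day. The H2-3 arrays on the slides of baboons 1 and 2 and of baboons 3 and 4 averaged 3.39 and 3.09 on day 2. On day 1 those averages were 3.02 and 3.11.

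CIITA probe 1 was dim, at -2.61 ± 0.41 in H2-3 on day 2, -2.45 ± 0.58 on day 1 and -2.37 ± 0.41 in H0 (SD, n = 5 each). It was not well above background on 2 of the H2-3 day 1 arrays. Its changes were -0.24 (-0.77 to 0.29) and -0.08 (-0.61 to 0.45). The genes closest to CIITA probe 2 over the 23 arrays were IL6ST (r = 0.851), the shared signalling receptor of the IL-6 family, EAF2 (0.849), CD22 (0.838) and EBF1 (0.838), both B cell genes, and CD40 (0.835), a costimulatory receptor of antigen-presenting cells.

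Array by array, the DO chains and the other class II genes had different deviations in H2-3. The median deviation of the 16 pan class II probes from their H0 means ran from -0.58 to 0.39 in H2-3 on day 2 and from -0.55 to 0.27 on day 1, against -0.33 to 0.32 in H0. HLA-DOB deviated by -2.16 to -1.53 on day 2 and by -2.47 to -0.86 on day 1. Baboon 1 of H2-3 on day 2 had the highest pan class II median of all arrays, 0.39, with HLA-DOB at -1.94 and HLA-DOA probe 2 at -1.95. Baboon 2 of H2-3 had the lowest, at -0.58 on day 2 and -0.55 on day 1.

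**Figure D4:**
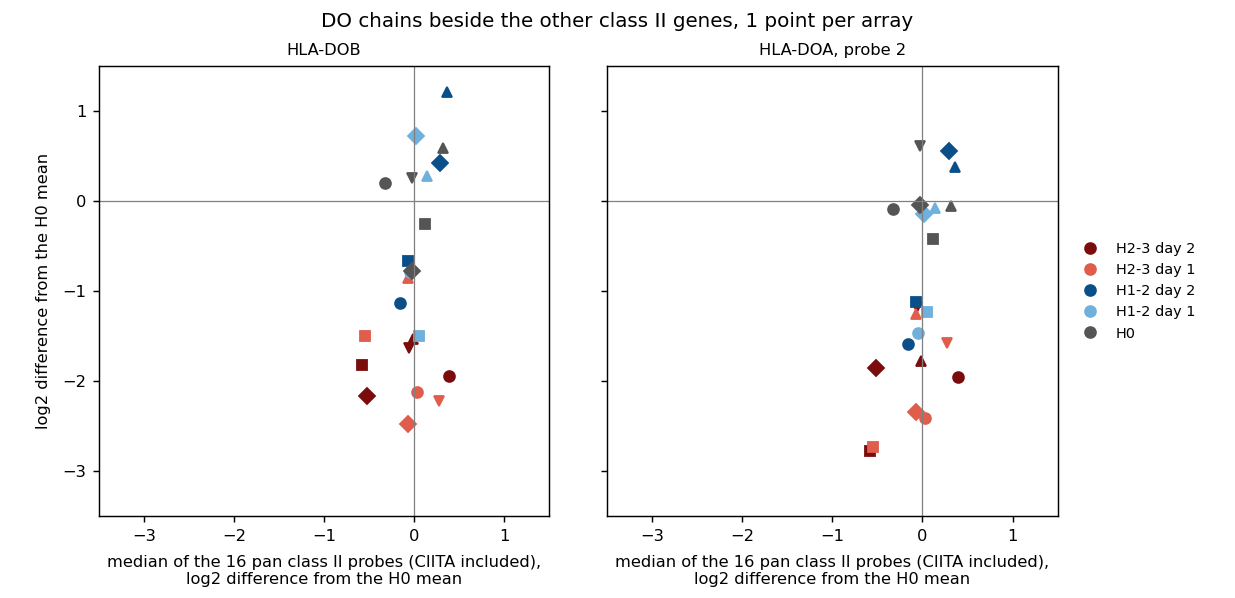
Each symbol is 1 array, with the median log2 difference of the 16 pan class II probes from their H0 means on the x axis and that of HLA-DOB (left) or HLA-DOA probe 2 (right) on the y axis, coloured by group. H2-3 arrays spread from -0.58 to 0.39 along x, close to the H0 range, and lie between -0.86 and -2.78 along y.

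Monocytes and dendritic cells also carry class II molecules. Monocyte markers moved the other way from the B cell markers, whereas dendritic cell markers were mixed. Of 13 monocyte markers 9 rose in H2-3 on day 2 and 11 on day 1, 0 in H1-2 on day 2 and 5 in H1-2 on day 1. The shares of all probes that rose were 10.2%, 15%, 0% and 4.15% in that order. The monocyte markers had a mean level of 4.76 ± 0.24, 5.09 ± 0.32, 4.17 ± 0.75, 4.48 ± 0.63 and 3.41 ± 0.32 in the same order of groups, ending with H0. In summed linear signal the range was 1420 to 2360 in H2-3 on day 2, 1960 to 2770 on day 1, 930 to 1730 in H1-2 on day 2, 1420 to 2000 on day 1 and 633 to 1250 in H0. Of 9 dendritic cell markers 1 rose and 1 fell in H2-3 on day 2, when 10.2% of all probes rose and 4.58% fell. On day 1, 2 of these 9 rose and 1 fell, when 15% of all probes rose and 13.6% fell. In H2-3 on day 1 LILRA4 and CLEC10A were the 2 that rose, and TCF4, which B cells also express, was the 1 that fell. The part of these cells in the level of the pan class II genes was not tested. Among cells that carry little class II, 8 of 11 mature neutrophil markers rose and 2 of 14 T cell markers fell in H2-3 on day 2, and 11 and 12 did on day 1. In H1-2, 0 and 0 did on day 2 and 8 and 5 on day 1. Of all probes, 4.58% fell in H2-3 on day 2 and 13.6% on day 1, and 0% and 4.54% in H1-2. The arrays of H1-2 and H0 shared no slide. H2-3 on day 1 and H0 shared 1 slide, with 1 array of each, so slide as a fixed block rests on that pair. With slide as a fixed block, the day 1 counts in H2-3 were 3 for monocyte, 2 for neutrophil, 10 for T cell and 6 for B cell markers, and in H1-2 they were 0 for all these lists.

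The other genes of the class II pathway were read with 1 probe each, the brightest. In the antigen processing list 4 of 9 genes rose in H2-3 on day 2 and 5 on day 1, 0 in H1-2 on day 2 and 3 on day 1, and none fell. The shares of all probes that rose were 10.2%, 15%, 0% and 4.15% in that order. With slide as a fixed block the day 1 counts were 1 in H2-3 and 0 in H1-2. The median change of the list was 1.00, 1.23, 0.67 and 0.83 in that order. IFI30, the thiol reductase of endosomes, rose by 0.98 ± 0.22 in H2-3 on day 2 (limma adjusted p = 0.0103), by 1.62 ± 0.22 on day 1 (limma adjusted p = 7.7e-05) and by 1.09 ± 0.24 in H1-2 on day 1 (limma adjusted p = 0.0149). The endosomal proteases CTSH, LGMN and CTSD rose by 0.97, 1.20 and 1.00 in H2-3 on day 2 and by 1.23, 1.26 and 1.13 on day 1, and CTSZ by 1.71 on day 1. CTSS, the protease that trims the invariant chain in B cells and dendritic cells, was at 1.13 ± 0.85 on day 1 (limma adjusted p = 0.352). Monocytes and neutrophils also express several of these proteases, and their markers rose in the same groups. The part of these cells in the rise of the processing genes was not tested.

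Among 14 regulators of class II transcription 3 rose in H2-3 on day 2, 3 rose and 1 fell on day 1, and 2 rose in H1-2 on day 1. Of all probes, 10.2% rose and 4.58% fell in H2-3 on day 2, and 15% and 13.6% on day 1. In H1-2 on day 1 these shares were 4.15% and 4.54%. With slide as a fixed block 0 of the 14 regulators were called on day 1 in either category. NFYA, a subunit of the factor that binds the Y box, rose by 1.54 ± 0.24 on day 2, 1.48 ± 0.24 on day 1 and 1.35 ± 0.26 in H1-2 on day 1 (limma adjusted p = 0.00377, 0.000226 and 0.0138). IFNGR2, a chain of the interferon gamma receptor, rose by 1.45, 1.77 and 1.40. RFX5, which binds the X box together with RFXAP and RFXANK, fell by 0.67 ± 0.18 on the log2 scale in H2-3 on day 1 (limma adjusted p = 0.00987), while RFXAP and RFXANK were at -0.24 and -0.03. JAK2, a kinase of the interferon gamma receptor, rose by 1.72 on day 1, and IRF1 by 1.00 on day 2.

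**Figure D5:**
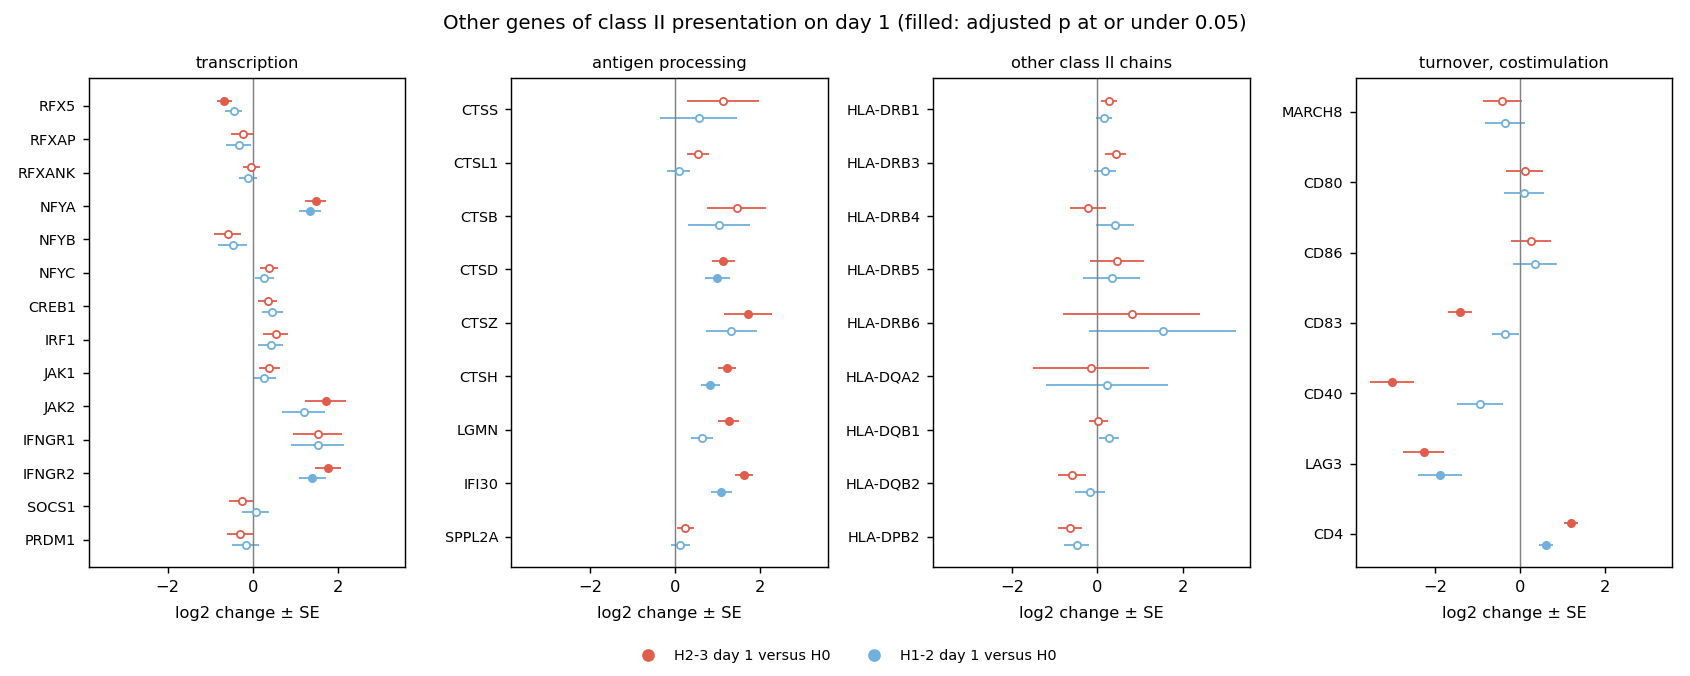
Log2 change from H0 ± SE on day 1 for the other genes of class II presentation, in H2-3 (red) and H1-2 (blue), in 4 lists (filled circles, limma adjusted p at or under 0.05). In the processing list 5 genes are filled in H2-3 and 3 in H1-2, all to the right of 0, and in the list of other class II chains none is filled.

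None of the 9 other class II chains passed the threshold against H0. Their median change was 0.16 in H2-3 on day 2, 0.02 on day 1, 0.37 in H1-2 on day 2 and 0.22 on day 1. HLA-DRB1, the beta partner of HLA-DRA, was at 0.27 ± 0.18 and HLA-DQB1 at 0.02 ± 0.23 in H2-3 on day 1. Near-identical DRB genes can share signal on these probes, so their values are not independent.

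Among 7 tested genes of turnover and costimulation 1 rose and 1 fell in H2-3 on day 2, 1 rose and 3 fell on day 1, and 1 rose and 1 fell in H1-2 on day 1. Of all probes, 10.2% rose and 4.58% fell in H2-3 on day 2, and 15% and 13.6% on day 1. In H1-2 on day 1 these shares were 4.15% and 4.54%. CD40 fell by 2.12 ± 0.51 on the log2 scale in H2-3 on day 2 (limma adjusted p = 0.0125) and by 3.01 ± 0.51 on day 1 (limma adjusted p = 0.000289), but it was well above background on 1 of 5 H2-3 arrays on day 1, so the size of the day 1 fall is not well measured. LAG3, a lymphocyte receptor for class II, fell by 2.26 ± 0.48 on the log2 scale on day 1 in H2-3 and by 1.88 ± 0.51 in H1-2. CD4, the T cell coreceptor that monocytes also carry, rose by 1.20 ± 0.16 on day 1 in H2-3 and by 0.62 ± 0.17 in H1-2. CD83, a class II stabiliser of activated antigen-presenting cells, fell by 1.41 ± 0.29 on the log2 scale in H2-3 on day 1 and was 1.43 ± 0.29 higher there on day 2 than on day 1. CD86 rose by 1.56 ± 0.48 in H2-3 on day 2 (limma adjusted p = 0.0362).

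Between the days no member probe was called in H1-2, where 0 of 27215 probes passed and 22.8% had an unadjusted p under 0.05, none of them a member. With baboon as a random replicate block limma called 1051 probes there, 0 of them members, and 3895 rather than 676 in H2-3. The change between the days did not differ between H2-3 and H1-2 past the threshold for any member, with 0 of 27215 probes called and 2.07% at an unadjusted p under 0.05. The interval of that difference was -1.60 to 1.08 for HLA-DOB and -1.10 to 0.34 for HLA-DRA.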

How the data were processed

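Blood RNA of 23 baboon samples (100 ng each) was hybridised singly in Cy3 to human Agilent 8x60K arrays. Per the file headers, the authors' deposited scanner files came from Agilent Feature Extraction 10.7.3.1, which gave the processed signal intensity per spot after background subtraction, with probe positions on hg19. The mean and background intensities of the same deposited files served only in an alternative. The authors also deposited a table of log2 values with 39726 probes, used as an alternative, whose columns correlated with their own arrays at 0.9994 to 0.9999. Its probe selection and exact centring are unknown, each column has a median of 4.703, and its direction is that of the arrays.

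Here control spots were left out, spots of a probe averaged, and log2 processed signals expressed relative to each array's 75th percentile. Probes well above background on at least 4 arrays (27215) were fitted with limma 3.58.1 in R 4.3.3 as 5 group means, with Benjamini-Hochberg adjustment over all probes, a threshold of 0.05 and two-sided tests. Standard errors and 95% intervals come from that fit. It was also run on simulated data with independent noise for each probe. That simulation held no slide, scan day or animal effects, so it cannot show how the fit behaves under them.

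The members, gene lists and tests were chosen with earlier results of these data known. Every member probe is named. Of each pathway list, the text names the 3 genes with the smallest p in H2-3 on day 1 against H0 and those past the threshold in other comparisons, and others it names were chosen after their values were seen. For HLA-DRA, HLA-DOB and CIITA the 5 genes of highest Pearson r over the arrays are named. Baboon numbers were taken to pair the days within a category, since the labels repeat them there. Residuals of the same baboon number correlated at 0.07 to 0.43 in H2-3 and 0.05 to 0.38 in H1-2. The own number was the best match for 3 of 5 arrays in H2-3 and 0 of 4 in H1-2. H0 numbers were paired with no other group, yet equal numbers in H0 and H2-3 on day 2 gave -0.09 to 0.49. These correlations therefore do not settle the pairing. Alternatives covered filters, scaling, background correction, the deposited table, 1 probe per gene, slide, scan day and baboon as blocks, the compared groups alone, and each array left out. 1 gene of the transcription list is not reported here and was left out of its counts.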

Additional observations from a re-analysis of the deposited data

Results flagged for a closer look

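Within the 95 groups of 4 or 5 arrays formed by the 19 probes and 5 groups, 6 held an array far from the others by Dixon's ratio at the 95% level, where chance alone gives about 5%. HLA-DPB1 probe 5 was at -2.43 in H2-3 day 1 baboon 4, against 4.38 to 5.28 in the other 4. In the same group HLA-DPA1 probe 2 was at 6.51 in baboon 2, against 7.13 to 7.32, and HLA-DQA1 probe 2 at 2.13 in baboon 5, against 3.29 to 3.73. HLA-DMA probe 2 was at 4.68 in H2-3 day 2 baboon 2, against 5.38 to 5.65. In H1-2 on day 1, HLA-DPA1 probe 1 was at 6.10 in baboon 3, against 5.62 to 5.65, and HLA-DPA1 probe 2 at 6.82 in baboon 4, against 7.07 to 7.11. None of these probes was called in any comparison.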

How the results depend on the processing

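The 22 alternatives for H2-3 on day 1 against H0 called HLA-DOA probe 2 every time (-3.02 to -1.90) and HLA-DOB 21 times (-2.37 to -1.27). The exception was slide as a fixed block. All 20 alternatives on day 2 called both, at -2.12 to -1.69 and -2.01 to -1.29. They do not include slide or scan day as a fixed block, under which day 2 against H0 cannot be estimated. No called value changed sign under any alternative. The count of member probes called lower on day 1, 3, became 5 with only probes detected on all arrays, with the 75th percentile over those probes, with quantile normalization, with the deposited table and with the 2 groups alone, where HLA-DPB1 probe 4 and CIITA probe 2 joined. It was 1 with slide as a fixed block, 2 without a filter, with normexp, with slide as a random block and with 1 probe per gene (which leaves 10 member probes), and 2 to 4 without each array in turn. With scan day as a fixed block it was 3, with CIITA probe 2 (limma adjusted p = 0.0326) in place of HLA-DPB1 probe 3 (0.0764). HLA-DPB1 probe 3 lost its call without H0 replicate 2, 3, 4 or 5 or H2-3 replicate 2, 3 or 4 (-1.03 to -0.83), and across 21 alternatives its adjusted p ran from 0.012 to 0.71. For day 2 against day 1 in H2-3 the count of 1 (HLA-DOA probe 1) became 0 without a filter, with normexp, with the 75th percentile over always-detected probes, with the deposited table, with slide as a random block, with the 2 groups alone and with baboon as a fixed replicate block, and it was 0 to 1 without each array in turn. It was also 0 with only probes detected on all arrays and with 1 probe per gene, where HLA-DOA probe 1 was not among the probes tested. With baboon as a random replicate block (consensus correlation 0.247) the probe stayed called at -0.70 (limma adjusted p = 0.0124), and the day 1 count against H0 was 4, with HLA-DPB1 probe 4 added. The block changed no other count of members. Of the processing list, 5 genes called on day 1 became 1 with slide as a fixed block. The count of all probes in H1-2 on day 1, 2364, was 12 with slide and 6 with scan day as a fixed block, 239 with the 2 groups alone and 9 without H1-2 replicate 1. In H2-3 it was 1286 of 7770 on day 1 with slide as a fixed block, and on day 2, 2036 of 4020 with the 2 groups alone, 1368 without H0 replicate 1 and 1072 without H2-3 replicate 4. Between the days in H2-3 the count of all probes, 676, was 3895 with baboon as a random replicate block, 411 with only probes detected on all arrays, 376 with the percentile over those, 284 with normexp, 247 with slide as a random block and 187 with the 2 groups alone. Without H2-3 day 2 replicate 1, 2, 3, 4 and 5 it was 4180, 236, 85, 185 and 20, and without day 1 replicate 1, 3, 4 and 5 it was 219, 362, 101 and 142. In H1-2 the count of 0 was 1051 with baboon as a random replicate block, 230 without H1-2 day 2 replicate 2 and 73 without replicate 3. With slide as a fixed block the day 1 marker counts in H2-3 became 3 of 11 for monocytes and 2 of 11 for neutrophils, and in H1-2 those of monocytes (5), neutrophils (8), T cells (5), processing (3) and transcription (2) became 0. The arrays of H1-2 and H0 share no slide. With slide as a fixed block they are compared only through the 1 slide that holds both H0 and H2-3 arrays. The causes were not tested.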
